A study of Mus musculus with 21 samples.

Results

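The genes described here are 10 splicing regulators, the SR splicing factors Srsf1, Srsf2, Srsf3, Srsf5, Srsf6, Srsf7, Srsf11 and Tra2a and the CLK kinases Clk1 and Clk4. They were taken by symbol from the 20900 genes of the deposited expression table, as a list chosen with earlier results of these data known. The data were poly(A) RNA-seq libraries of E14 cells, a mouse embryonic stem cell line of the 129 strain grown in serum with leukaemia inhibitory factor. Cells received medium with 1 µM BMH-21 or 1 µM CX-5461, both inhibitors of RNA polymerase I, for 2, 4 or 8 h, and the control was untreated cells at 0 h. Each of the 7 groups had 3 libraries, 21 in all. Both inhibitors were compared with the same control libraries, no control was taken at the later times, and all cells came from 1 line with no gene altered. Nothing in the labels says whether the 3 replicates of a group were separate cultures. The p-values thus rest on a spread between these libraries that is pooled over genes and may be technical.

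SR proteins bind exonic enhancers through RNA recognition motifs and recruit the spliceosome through a tail rich in arginine and serine. CLK kinases phosphorylate that tail in the nucleus, which releases SR proteins from nuclear speckles, and phosphatases and SRPK kinases act on the same residues. Several SR genes limit their own messenger RNA through ultraconserved poison exons that lead to nonsense-mediated decay, and part of the Clk1 and Clk4 transcripts is known to be held in the nucleus with introns that are spliced late. RNA polymerase I transcribes the ribosomal RNA genes in the nucleolus.

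Positions are from GENCODE M21 on GRCm38, the same assembly as mm10, which the submitters' processing notes name. Srsf1 (chr11:88047373-88053755, plus strand) encodes SF2/ASF, which acts in splicing, export and translation. Srsf2 (chr11:116849901-116853094, minus strand) encodes SC35, a protein of nuclear speckles. Srsf6 (chr2:162931528-162937121, plus strand) encodes SRp55, a splicing enhancer protein. Srsf3 (chr17:29032628-29043373, plus strand) and Srsf7 (chr17:80200080-80207307, minus strand) encode SR proteins that also serve as adaptors in messenger RNA export. Srsf5 (chr12:80945504-80950507, plus strand) encodes SRp40, a splicing enhancer protein. Srsf11 (chr3:158010473-158036639, minus strand) encodes p54, an SR-like protein, and Tra2a (chr6:49243924-49264033, minus strand) encodes a homologue of the fly sex-determination factor Transformer-2. The kinases are Clk1 (chr1:58410189-58424066, minus strand) and Clk4 (chr11:51261730-51281766, plus strand).

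All 10 genes had at least 1 annotated transcript subject to nonsense-mediated decay and at least 1 with a retained intron. Both kinds were annotated for 2877 (20.3%) of the 14145 tested genes whose symbol was in GENCODE M21. Annotated retained-intron transcripts numbered from 1, in Srsf2 and Srsf6, to 11 in Srsf11, and Clk1 and Clk4 had 7 each. The deposited values are 1 per gene, so a change in a gene's value can hold any mix of these transcripts, and which transcripts moved was not analysed here.

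Promoter sequences were matched by symbol for 9 of the 10 genes in a RefSeq table on GRCm38.p6. Shown are the 250 bases before the RefSeq start of the 3 genes whose levels moved together most closely (Srsf1, Srsf6 and Srsf2) and of Clk4, the matched kinase gene, whose course was different. Capitals mark matches on either strand, which may overlap, to GGGCGG (the Sp/KLF box, read CCGCCC on the other strand), to the CCAAT box, to the TATAAA box and to the cAMP response element TGACGTCA.
Srsf1, chr11:88047123-88047372, plus strand: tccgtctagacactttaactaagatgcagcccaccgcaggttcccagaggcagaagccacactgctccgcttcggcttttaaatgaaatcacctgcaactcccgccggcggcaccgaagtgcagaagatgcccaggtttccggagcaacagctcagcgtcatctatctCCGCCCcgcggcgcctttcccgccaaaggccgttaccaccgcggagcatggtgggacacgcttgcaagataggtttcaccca
Srsf6, chr2:162931258-162931507, plus strand: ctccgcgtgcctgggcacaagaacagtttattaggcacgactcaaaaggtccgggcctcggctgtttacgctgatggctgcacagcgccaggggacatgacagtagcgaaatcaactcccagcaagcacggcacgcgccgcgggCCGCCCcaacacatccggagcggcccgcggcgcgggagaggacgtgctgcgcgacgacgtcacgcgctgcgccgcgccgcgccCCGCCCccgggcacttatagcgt
Srsf2, chr11:116853095-116853344, minus strand: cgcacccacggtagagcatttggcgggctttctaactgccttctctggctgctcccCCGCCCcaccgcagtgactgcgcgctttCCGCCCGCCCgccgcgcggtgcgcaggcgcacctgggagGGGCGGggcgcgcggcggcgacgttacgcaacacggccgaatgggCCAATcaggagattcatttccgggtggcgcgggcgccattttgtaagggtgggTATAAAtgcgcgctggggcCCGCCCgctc
Clk4, chr11:51262864-51263113, plus strand: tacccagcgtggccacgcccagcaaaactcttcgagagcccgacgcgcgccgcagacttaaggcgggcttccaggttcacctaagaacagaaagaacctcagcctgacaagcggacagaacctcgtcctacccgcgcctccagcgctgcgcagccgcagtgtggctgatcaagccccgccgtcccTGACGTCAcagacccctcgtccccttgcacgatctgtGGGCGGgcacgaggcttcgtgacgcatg
GGGCGG was present in 8 of the 9 matched promoters, all but that of Srsf3, and in 32.7% of the 32851 promoters of the table cut to the same length. The Srsf2 promoter held 5 copies, the Srsf6 promoter 2, and those of Srsf1 and Clk4 held 1 each. CCAAT was in the promoters of Tra2a, Srsf2 and Srsf3 (3 of 9, against 33.8% of all promoters). TATAAA was in those of Srsf2 and Srsf3 (2 of 9, against 12.4%), and TGACGTCA in those of Tra2a and Clk4 (2 of 9, against 1.5%). These are matches of letters, with no measurement of binding. The stretch shown for Clk4 begins at 51262864, inside the GENCODE M21 gene, which starts at 51261730. The RefSeq start used for Clk4 thus lies downstream of the GENCODE start.

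The libraries held 46604397 to 62812641 reads over the genes of the table, and the 10 genes had from 1647 reads (Clk4) to 50551 reads (Srsf2) in a library. The deposited value is a log2 of reads per 1000000 reads of a scaled library size, and the scaling factors ran from 0.832 to 1.375 where median-ratio factors of the same genes ran from 0.941 to 1.107. Subtracting each library's median over the genes tested, called centring below, moved the median fold change of all genes against control by 0.08, 0.15 and 0.21 upward at 2, 4 and 8 h of BMH-21. For CX-5461 it was moved upward by 0.15 and 0.16 at 2 and 4 h and downward by 0.22 at 8 h, so each value below is to be read against that shift. The spread of a member between libraries of the same group, pooled over the 7 groups, had an SD of 0.11 to 0.14 as deposited. After centring that SD was 0.036 to 0.070. Replicate 2 of BMH-21 8 h stood apart, with the largest factor and a chi-square per degree of freedom of 31.3 and 29.7 against the other libraries of its group, where the other replicate pairs of the study had 2.76 to 19.6. All 8 markers of embryonic stem cells were detected, at a summed 5011 to 5107 reads per 1000000 reads in the control libraries. Their sum was 2859 to 3072 in BMH-21 8 h and 4369 to 4453 in CX-5461 8 h. The neural list summed to 146 to 179 in the control, 90.4 to 99.2 in BMH-21 8 h, 190 to 194 in CX-5461 8 h, and 187 to 196 and 190 to 198 at 2 h of BMH-21 and CX-5461. The lists for fibroblasts, primitive endoderm and trophoblast summed to 8.62 to 27.7 on the same scale in the control and to 21.0 to 102 in BMH-21 8 h. At 8 h of CX-5461 the trophoblast list summed to 58.3 to 62.2 and the fibroblast list to 20.8 to 21.8 (8.62 to 9.60 in the control), none of their genes was at 0 in every library, and the part of these shifts in the results was not tested.

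In control cells the SR genes were more abundant per kilobase of exon than the kinase genes. Srsf2 was highest at a log2 level per kilobase of 8.36. Srsf1 (7.13), Srsf6 (6.99), Srsf7 (6.93), Srsf5 (6.80) and Srsf3 (6.76) followed, and the ranges of each neighbouring pair in that order overlapped between libraries. Within a library the neighbouring differences varied little, at 0.14 ± 0.02, 0.05 ± 0.00, 0.14 ± 0.01 and 0.04 ± 0.03 in that order (SD, n = 3). Tra2a (5.19), Srsf11 (4.81), Clk1 (3.71) and Clk4 (3.03) lay below, each apart from its neighbours in all 3 control libraries. Annotated exons of all transcripts set the lengths, so levels of genes with long minor transcripts are understated.

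**Figure D1:**
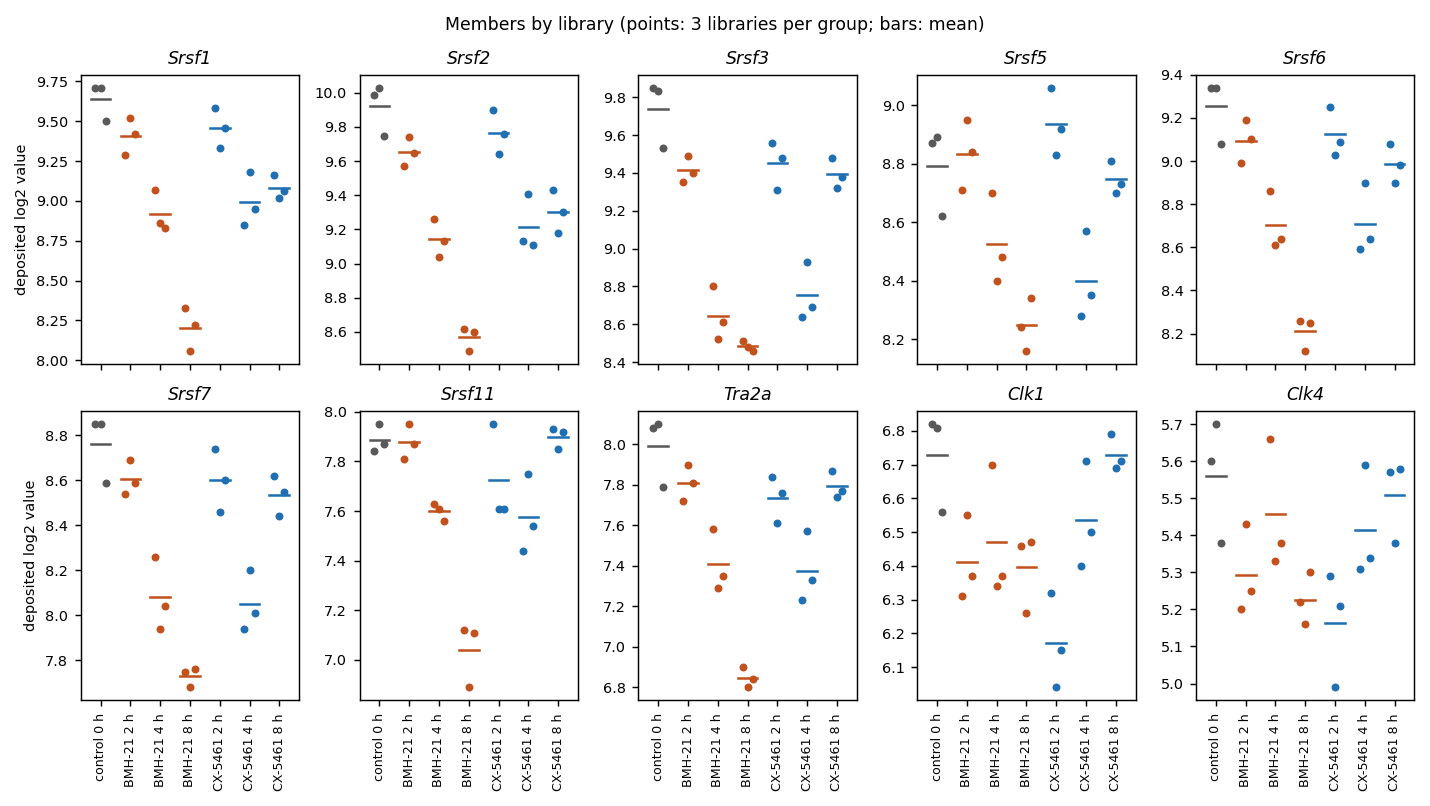
Deposited log2 value (vertical axis) of each of the 10 genes in the 21 libraries, grouped by treatment on the horizontal axis, with points for libraries and bars for group means. In the Srsf1 panel the BMH-21 8 h libraries sit between 8.06 and 8.33, below all others, while Clk1 is lowest in the CX-5461 2 h libraries, between 6.04 and 6.32.

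Srsf1, Srsf2 and Srsf6 were lower at 4 h than at 2 h of BMH-21 and lower again at 8 h, and they followed nearly the same course. The deposited log2 value of Srsf1 was 9.71, 9.71 and 9.50 in the control libraries, 9.29, 9.52 and 9.42 at 2 h, 9.07, 8.86 and 8.83 at 4 h, and 8.33, 8.06 and 8.22 at 8 h of BMH-21. In CX-5461 it was 9.58, 9.33 and 9.46 at 2 h, 8.85, 9.18 and 8.95 at 4 h, and 9.16, 9.02 and 9.06 at 8 h. The libraries of both inhibitors at 4 and 8 h were thus all below the control libraries, and those of BMH-21 8 h were below every other library of the study. Srsf1 fell by 1.44 on the log2 scale at 8 h of BMH-21 (SE 0.10, adjusted p = 1.5e-26), a 2.71-fold reduction, and by 0.56 at 8 h of CX-5461 (SE 0.10, adjusted p = 1.3e-06). After centring these log2 fold changes were -1.23 and -0.77, and after quantile normalization -0.73 and -0.32. As bulk RNA was measured, less RNA per cell and fewer cells of a kind cannot be told apart.

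Srsf2 stood at 9.99, 10.03 and 9.75 in the control and at 8.62, 8.49 and 8.60 after 8 h of BMH-21. Its values after 8 h of CX-5461 were 9.43, 9.18 and 9.30, between those groups and without overlap with either. The log2 fold change was -1.35 (SE 0.10, adjusted p = 5.5e-25) for BMH-21 and -0.61 (SE 0.10, adjusted p = 8.8e-08) for CX-5461. These became -1.14 and -0.83 after centring, and -0.64 and -0.40 after quantile normalization. Srsf2 overlaps Mfsd11 and Mettl23 on the opposite strand, and whether strand was used in counting is not given in the sources used here. Mfsd11 had reads equal to 6.03% of those of Srsf2 in the control and 17.4% at 8 h of BMH-21, and Mettl23 between 0.974% and 2.04% over the groups.

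Srsf6 fell by 1.05 at 8 h of BMH-21 (SE 0.10, adjusted p = 1.5e-17), with -0.83 after centring and -0.34 after quantile normalization. In CX-5461 it fell by 0.54 at 4 h (SE 0.10, adjusted p = 1.6e-06), with -0.38 after centring and -0.12 after quantile normalization. The sizes of these falls moved with the scaling. Its log2 fold change at 8 h of CX-5461 was -0.27 as deposited (adjusted p = 0.021), -0.49 after centring and -0.04 after quantile normalization, so the size of that change rests on the scaling. The deposited change did not pass without control replicate 1 or 2 or CX-5461 8 h replicate 2 or 3 (adjusted p from 0.057 to 0.11). Across the 21 centred libraries Pearson's r was 0.99 between each pair of Srsf1, Srsf2 and Srsf6, a description over libraries that share the treatments.

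Srsf3 had the largest drop of the 10 genes at 4 h in both inhibitors. Its values were 9.85, 9.83 and 9.53 in the control, 9.35, 9.49 and 9.40 at 2 h, 8.80, 8.52 and 8.61 at 4 h, and 8.51, 8.48 and 8.46 at 8 h of BMH-21. In CX-5461 they were 9.56, 9.31 and 9.48 at 2 h, 8.64, 8.93 and 8.69 at 4 h, and 9.48, 9.32 and 9.38 at 8 h. The 3 libraries at 8 h of CX-5461 lay above those at 4 h and below the control. At 4 h Srsf3 fell by 1.09 in BMH-21 (SE 0.10, adjusted p = 1.7e-18) and by 0.99 in CX-5461 (SE 0.10, adjusted p = 6.0e-16). Only 6.21% and 5.77% of the 14666 genes tested had a lower fold change in those comparisons. After quantile normalization the changes were -0.79 and -0.58. Between 4 and 8 h of CX-5461 Srsf3 rose by 0.64 (SE 0.10, adjusted p = 3.7e-08), and by 0.27 after centring (SE 0.05, adjusted p = 1.2e-04). In BMH-21 the same step was -0.16 (adjusted p = 0.17), with 0.01 by median-ratio factors and 0.25 after quantile normalization, so its sign was set by the scaling.

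Srsf7 fell at 4 h and rose again by 8 h of CX-5461, as Srsf3 did, by less in each step. It fell by 0.68 at 4 h of BMH-21 and by 0.71 at 4 h of CX-5461 (SE 0.10, adjusted p = 4.4e-09 and 1.3e-09). From 4 to 8 h of CX-5461 it rose by 0.49 (SE 0.10, adjusted p = 2.6e-05), or by 0.11 after centring (adjusted p = 0.029). In BMH-21 its log2 fold change at 8 h was -1.03 (SE 0.10, adjusted p = 4.6e-17), with -0.82 after centring and -0.38 after quantile normalization. From 4 to 8 h of BMH-21 it changed by -0.35 (adjusted p = 0.0022), or -0.29 after centring (adjusted p = 2.7e-06), a larger step than that of Srsf3, and by 0.01 after quantile normalization. Srsf3 and Srsf7 were the only members whose rise from 4 to 8 h of CX-5461 passed under every one of the 4 scalings used (deposited, centred, median-ratio factors and quantile normalization).

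Srsf5, with Srsf11, had the smallest deposited changes of the SR genes at 2 and 4 h of BMH-21. The control libraries had 8.87, 8.89 and 8.62, the CX-5461 2 h libraries 9.06, 8.83 and 8.92, and the BMH-21 2 h libraries 8.71, 8.95 and 8.84. On the deposited scale these groups overlap and neither 2 h change passed (log2 fold changes of 0.14 and 0.04, adjusted p = 0.27 and 0.84). After centring Srsf5 rose by 0.29 at 2 h of CX-5461 (SE 0.04, adjusted p = 1.1e-06) and by 0.12 at 2 h of BMH-21 (SE 0.04, adjusted p = 0.016), with no overlap between groups. The centred rise in CX-5461 passed without any 1 of the 6 libraries (adjusted p up to 2.3e-05), whereas that in BMH-21 was 0.08 without control replicate 3 (adjusted p = 0.11). At 2 h of CX-5461 86.7% of the genes tested had a lower fold change than Srsf5. By 4 h it fell by 0.40 against control in CX-5461 (SE 0.10, adjusted p = 4.1e-04), with -0.24 after centring (adjusted p = 3.9e-06), -0.15 by median-ratio factors and -0.01 after quantile normalization. After 8 h in BMH-21 it fell by 0.55 (SE 0.10, adjusted p = 7.4e-07). After quantile normalization the 8 h change turned to 0.15 in BMH-21 and 0.17 in CX-5461, so no direction is given for Srsf5 at 8 h.

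Srsf11 was lowered mainly at 8 h of BMH-21. It had 7.84, 7.95 and 7.87 in the control, 7.63, 7.61 and 7.56 at 4 h and 7.12, 6.89 and 7.11 at 8 h of BMH-21. In CX-5461 it had 7.95, 7.61 and 7.61 at 2 h, 7.44, 7.75 and 7.54 at 4 h, and 7.93, 7.85 and 7.92 at 8 h, where it overlapped the control. It fell by 0.85 at 8 h of BMH-21 (SE 0.10, adjusted p = 1.1e-12), with -0.64 after centring and -0.30 after quantile normalization. The log2 fold change at 8 h of CX-5461 was 0.01 as deposited (adjusted p = 0.94), -0.20 after centring (adjusted p = 0.0012) and 0.14 after quantile normalization.

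Tra2a showed the widest gap between the inhibitors at 8 h. Its values were 8.08, 8.10 and 7.79 in the control, 6.90, 6.80 and 6.84 at 8 h of BMH-21, and 7.87, 7.74 and 7.77 at 8 h of CX-5461. The BMH-21 libraries were below all others and the CX-5461 libraries overlapped the control. Tra2a fell by 1.15 at 8 h of BMH-21 (SE 0.11, adjusted p = 4.8e-19), with -0.93 after centring and -0.61 after quantile normalization. At 8 h of CX-5461 it was -0.20 (adjusted p = 0.11), or -0.41 after centring (adjusted p = 2.6e-08) and -0.07 after quantile normalization. At 4 h the inhibitors gave like values, -0.58 in BMH-21 and -0.61 in CX-5461 (SE 0.11, adjusted p = 6.1e-07 and 2.0e-07).

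The kinase genes had a course of their own and on the deposited scale were lowest at 2 h of CX-5461. Clk1 was at 6.82, 6.81 and 6.56 in the control and at 6.32, 6.04 and 6.15 at 2 h of CX-5461. It was at 6.40, 6.71 and 6.50 at 4 h and 6.79, 6.69 and 6.71 at 8 h of CX-5461, where the libraries overlapped the control again. In BMH-21 it was at 6.31, 6.55 and 6.37 at 2 h, 6.70, 6.34 and 6.37 at 4 h, and 6.46, 6.26 and 6.47 at 8 h. The 2 h libraries of both inhibitors lay below all control libraries. Clk1 fell by 0.56 at 2 h of CX-5461 (SE 0.11, adjusted p = 1.8e-05) and by 0.33 at 2 h of BMH-21 (SE 0.11, adjusted p = 0.022), when 4.45% and 12.7% of the genes tested had a lower fold change. The deposited change in BMH-21 did not pass without control replicate 1 or 2 or BMH-21 2 h replicate 1 or 3 (adjusted p from 0.088 to 0.13). After centring it passed without any 1 of the 6 libraries, at -0.28 to -0.22 (adjusted p up to 3.3e-04). From 2 to 4 h of CX-5461 Clk1 rose by 0.37 (SE 0.11, adjusted p = 0.0034), and the rise passed under all 4 scalings. The log2 fold change of Clk1 at 8 h of BMH-21 was -0.34 as deposited (adjusted p = 0.0035), -0.12 after centring, 0.02 by median-ratio factors and 0.15 after quantile normalization, so no direction is given.

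Clk4 followed Clk1 at a lower level. The control libraries had 5.60, 5.70 and 5.38 and the CX-5461 2 h libraries 5.29, 4.99 and 5.21, without overlap. Clk4 fell by 0.40 at 2 h of CX-5461 (SE 0.11, adjusted p = 0.0041). After centring it was as low at 8 h of CX-5461 (-0.27, adjusted p = 1.3e-04) as at 2 h (-0.25), whereas the deposited change at 8 h was -0.05 (adjusted p = 0.73). Its change at 2 h of BMH-21, -0.26, did not pass (adjusted p = 0.084) but did after centring (-0.19, adjusted p = 0.0083). Without control replicate 2 or CX-5461 2 h replicate 2 the deposited change at 2 h of CX-5461 was -0.33 or -0.31 and did not pass (adjusted p = 0.058 and 0.074). With centring, a combination tried after seeing the data, it passed without any 1 of the 6 libraries (adjusted p up to 0.01). The centred change at 2 h of BMH-21 was -0.15 without control replicate 2 (adjusted p = 0.063) and -0.16, at the threshold, without BMH-21 2 h replicate 3 (adjusted p = 0.05). Clk4 overlaps BC049762 on the opposite strand. BC049762 had 16 to 17 reads in the control libraries, 0.741% of the reads of Clk4, and 583 to 917 reads, or 27.7%, at 8 h of BMH-21. The share was 9.23% at 8 h of CX-5461 and 1.65% at 2 h. Without knowing whether strand was used in counting, reads of the pair cannot be told apart, and a part of this overlap in the later Clk4 values was not tested.

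**Figure D2:**
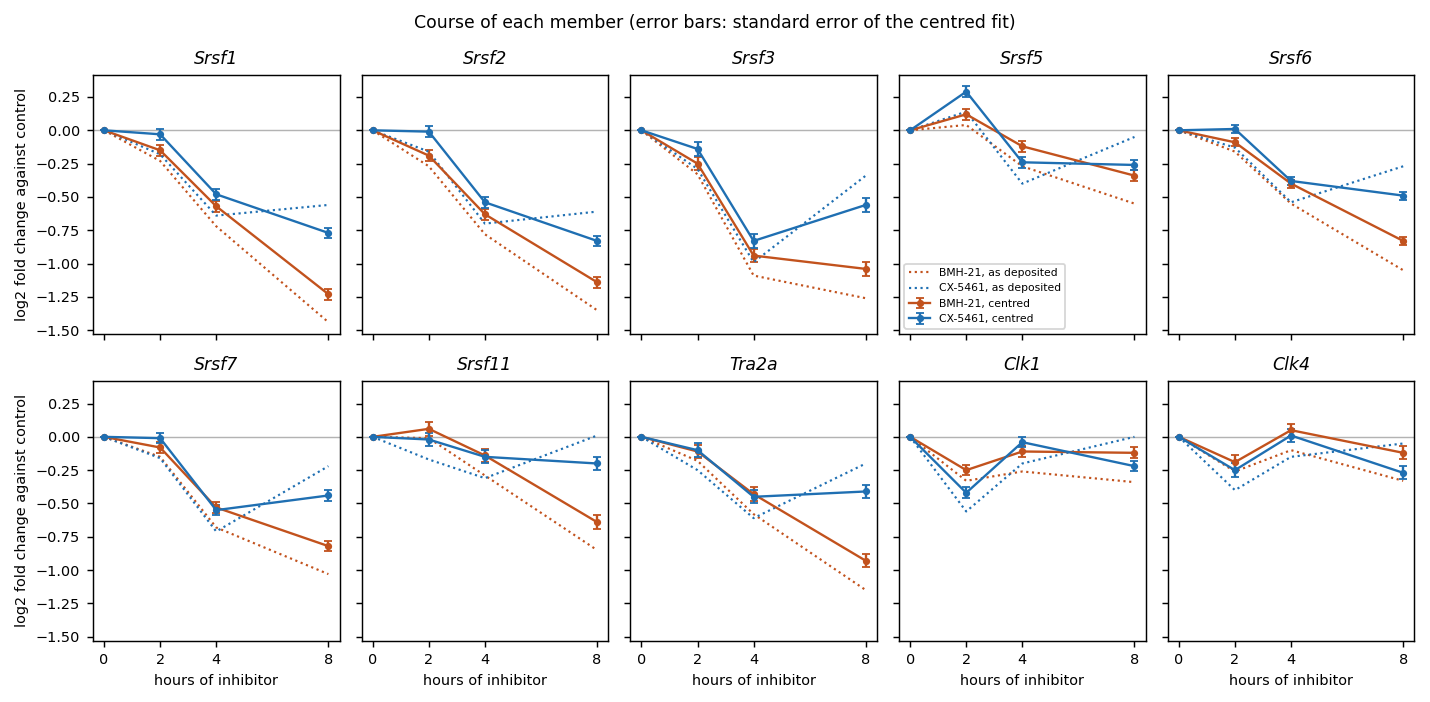
Log2 fold change against control (vertical axis) over hours of inhibitor (horizontal axis) for each gene, with solid lines for centred values, error bars for their standard error and dotted lines for values as deposited. Srsf1 reaches -1.23 in BMH-21 and -0.77 in CX-5461 after centring, and Srsf3 turns upward after 4 h of CX-5461. Clk1 is lowest at 2 h on the solid lines.

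Most members were lower at 4 and 8 h of BMH-21, when a large share of all genes was lower as well. At 2 h of BMH-21 3 of the 10 (Srsf2, Srsf3 and Clk1) were lower as deposited, where 11.2% of all genes tested were called lower. After centring 5 were lower and 1 higher, against 17.5% and 18.6% of all genes. The deposited count was 0 without control replicate 1, control replicate 2 or BMH-21 2 h replicate 1, 1 without BMH-21 2 h replicate 3 and 5 without control replicate 3, so it rests on single libraries. After centring Srsf2 and Srsf3 passed without any 1 of the 6 libraries (adjusted p up to 0.014 and 0.0052), as Clk1 did. At 4 h of BMH-21 9 of 10 were lower (44.9% of all genes, or 9 against 41.5% after centring), all but Clk4. All 10 were lower at 8 h of BMH-21 (56.9% of all genes lower and 24.5% higher), and 10 were lower after centring (51.3% lower and 33.3% higher). Leaving out the BMH-21 8 h library that stood apart kept that count at 10. The members' median log2 fold change at 8 h of BMH-21 was -1.04, where that of all genes was -0.40, and after centring the medians were -0.83 and -0.19.

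With CX-5461 the count at 8 h depended on the scaling. At 2 h 3 of 10 (Srsf3, Clk1 and Clk4) were lower, where 20.5% of all genes were. After centring 3 were lower and 1, Srsf5, was higher, against 17.8% and 15.8% of all genes. That deposited count was 1 without control replicate 2 or CX-5461 2 h replicate 2, and 5 without CX-5461 2 h replicate 1. The centred change of Srsf3 was -0.13 to -0.11 and did not pass without control replicate 1 or 2 or CX-5461 2 h replicate 1 or 2 (adjusted p from 0.12 to 0.17). At 4 h 8 of 10, all but the kinases, were lower (51.2% of all genes, or 8 against 45.7% after centring). At 8 h 4 of 10 (Srsf1, Srsf2, Srsf3 and Srsf6) were lower, where 14.3% of all genes were lower and 35.1% higher. After centring all 10 were lower, against 44.7% of all genes lower and 29.3% higher, and the members' median was -0.43 where that of all genes was -0.11.

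A stricter count took only changes that passed in the same direction under all 4 scalings. At 2 h this left Srsf2, Srsf3 and Clk1 for BMH-21 (3 of 10, against 10.8% of all genes) and Clk1 and Clk4 for CX-5461 (2 of 10, against 12.5%). At 4 h it left the same 6 genes in each inhibitor, Srsf1, Srsf2, Srsf3, Srsf6, Srsf7 and Tra2a, against 36.7% of all genes for BMH-21 and 33.1% for CX-5461. At 8 h of BMH-21 it left 7, those 6 and Srsf11, against 40.4% of all genes. At 8 h of CX-5461 it left 3, Srsf1, Srsf2 and Srsf3, against 13.6% of all genes. The comparisons of each inhibitor share the control libraries.

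The inhibitors were next compared at matched dose and time. At 2 h 0 of 10 members differed by limma on the deposited values, where 3.99% of all genes did in either direction. The fits with voom weights and with a replicate block also called 0, and 1 member, Clk1, had an unadjusted p under 0.05. After centring 4 members were lower in BMH-21 than in CX-5461 (Srsf1, Srsf2, Srsf5 and Srsf6) and Clk1 was higher by 0.17, against 7.58% and 7.83% of all genes. At 4 h 0 of 10 differed by limma, where 17.8% of all genes did, also with voom weights and with a replicate block, and 0 had an unadjusted p under 0.05. After centring 1 member, Srsf5, was higher in BMH-21, against 27.4% of all genes. A p above the threshold does not show that the inhibitors act alike, and the deposited differences at 4 h ran from -0.11 (Srsf3) to 0.13 (Srsf5), each with an SE of 0.10 to 0.11.

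At 8 h all 10 members were lower in BMH-21 than in CX-5461 on the deposited scale, where 67.2% of all genes were. After centring, which moved the median of all genes by 0.43, 7 were lower and the 2 kinase genes were higher, against 40.6% and 31.1% of all genes. The same 7 (Srsf1, Srsf2, Srsf3, Srsf6, Srsf7, Srsf11 and Tra2a) were lower under all 4 scalings, against 36.3% of all genes. The widest difference was that of Tra2a, -0.95 as deposited (SE 0.11, adjusted p = 3.1e-14) and -0.52 after centring (SE 0.05, adjusted p = 6.3e-10). Clk1 was -0.34 as deposited (adjusted p = 0.0038) and 0.09 after centring (adjusted p = 0.038), and Clk4 -0.28 and 0.15 (adjusted p = 0.018 and 0.020), so the direction of the kinases was set by the scaling. The deposited difference of Clk4 did not pass without CX-5461 8 h replicate 1 or 3 (adjusted p = 0.07 and 0.075). Leaving out the BMH-21 8 h library that stood apart gave -0.92 for Tra2a and kept the count at 10.

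Most SR-type genes fell from 2 to 4 h in both inhibitors, and the steps from 4 to 8 h differed between them. As no control was taken at the later times, a fall seen in both inhibitors cannot be told apart from a change with time in culture. From 2 to 4 h of BMH-21 the 8 SR-type genes were lower (34.8% of all genes), and after centring those 8 were lower and both kinases higher (39.3% and 29.0%). From 2 to 4 h of CX-5461 7 of the SR-type genes were lower, all but Srsf11, and Clk1 was higher (26.8% and 20.7% of all genes), with 8 lower and 2 higher after centring (40.2% and 26.7%). From 4 to 8 h of BMH-21 7 members were lower (37.8% of all genes), or 8 after centring (42.2%). From 4 to 8 h of CX-5461 6 members were higher and 0 lower (58.8% of all genes were higher). After centring 2 were higher and 5 lower (25.8% and 32.0%), and Srsf3 and Srsf7 were the 2 higher under all 4 scalings (24.8% of all genes). Srsf1 and Srsf2 changed sign in that step, from 0.08 and 0.09 as deposited to -0.29 for each after centring.

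The difference between the inhibitors in the step from 4 to 8 h was tested as an interaction. It was negative, meaning a more negative step in BMH-21, for the 8 SR-type genes on the deposited scale, where 61.4% of all genes were called so. After centring those 8 stayed lower and Clk1 was higher, against 36.2% and 24.0% of all genes. It passed under all 4 scalings for 6 genes, Srsf1, Srsf3, Srsf6, Srsf7, Srsf11 and Tra2a, against 27.0% of all genes. Tra2a had the largest value, -0.98 (SE 0.15, adjusted p = 1.5e-08), or -0.54 after centring.

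Differences between members of the same library do not depend on the scaling factor of that library, so they were set beside the fold changes. Centring and median-ratio factors leave them as they are, whereas quantile normalization, which replaces values by rank, does not. The log2 difference of Clk1 and Srsf1, relative to its mean in the control, was -0.02 to 0.01 in the control libraries. At 2 h it was -0.07, -0.07 and -0.14 in BMH-21 and -0.36, -0.38 and -0.41 in CX-5461. At 4 h it was 0.54, 0.38 and 0.44 in BMH-21 and 0.45, 0.43 and 0.45 in CX-5461, and at 8 h it was 1.03, 1.11 and 1.16 against 0.54, 0.58 and 0.56. The kinase transcript thus stood lower relative to Srsf1 at 2 h and higher at 4 and 8 h in every library of both inhibitors. The difference at 8 h was 1.10 ± 0.06 (SD, n = 3) for BMH-21 and 0.56 ± 0.02 (SD, n = 3) for CX-5461, without overlap. With quantile-normalized values the BMH-21 means at 2, 4 and 8 h stood at -0.07, 0.43 and 0.89 and the CX-5461 means at -0.38, 0.38 and 0.36, with the same signs and the 8 h value in CX-5461 smaller by over 1.5 times.

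Within libraries Srsf3 crossed Srsf1. Relative to the control, Srsf3 minus Srsf1 was -0.38 ± 0.06 (SD, n = 3) at 4 h of BMH-21 and -0.35 ± 0.02 (SD, n = 3) at 4 h of CX-5461. At 8 h it was 0.18 ± 0.12 and 0.21 ± 0.00 (SD, n = 3 each), above the control libraries in both. Relative to the control Srsf5 stood above Srsf1 at every time, by 0.27 at 2 h, 0.45 at 4 h and 0.89 at 8 h of BMH-21 and by 0.32, 0.25 and 0.51 in CX-5461. Clk4 minus Clk1 stayed within -0.14 to 0.23 in all libraries, and Srsf2 minus Srsf1 within -0.12 to 0.15. After quantile normalization Srsf3 minus Srsf1 was -0.35 and -0.33 at 4 h and 0.19 and 0.21 at 8 h of BMH-21 and CX-5461. The mean of Clk4 minus Clk1 at 8 h went from 0.00 to -0.15 in BMH-21 and from -0.05 to -0.20 in CX-5461. With 3 libraries against 3 an exact permutation test of such a difference cannot go below 0.10, so these are given as values.

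**Figure D3:**
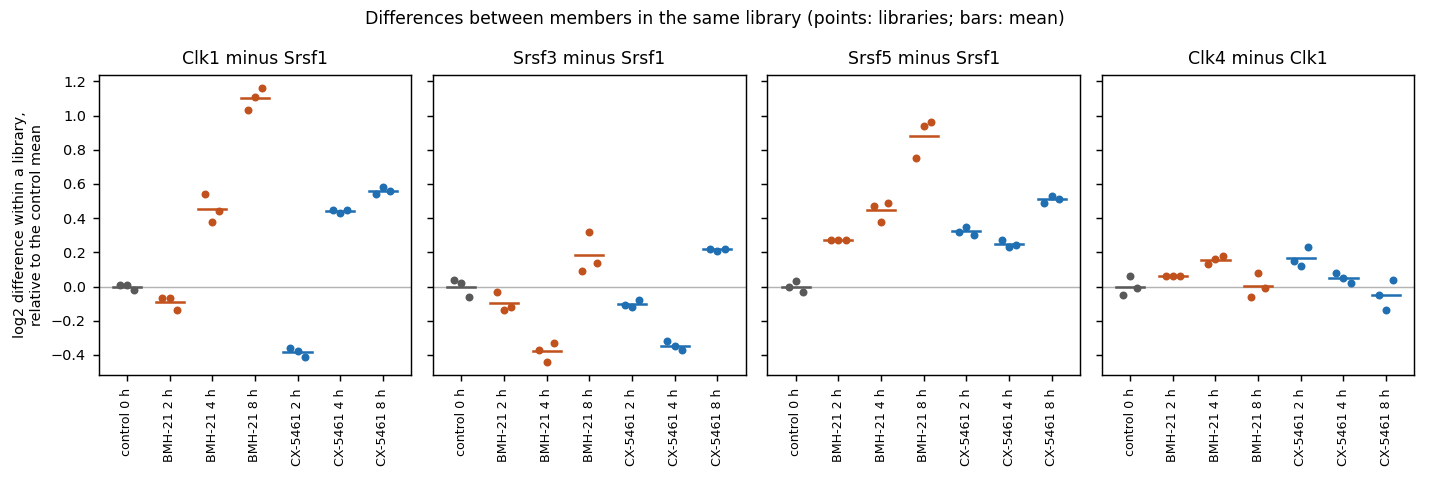
Log2 difference between 2 members in the same library, relative to the control mean (vertical axis), for the 7 groups on the horizontal axis, with points for libraries and bars for group means. Clk1 minus Srsf1 climbs to 1.10 at 8 h of BMH-21 and 0.56 at 8 h of CX-5461 after dipping at 2 h, and Srsf3 minus Srsf1 dips at 4 h and lies above 0 at 8 h.

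The place of a member's fold change among those of all genes tested is left unchanged by any shift common to all genes of a library. After 8 h of CX-5461 only 2.56% of genes had a lower fold change than Srsf2 and 3.44% than Srsf1, and at 8 h of BMH-21 8.27% and 6.85%. Their absolute fall was therefore larger in BMH-21, while their place among genes was more extreme in CX-5461. Tra2a lay at 13.4% and 19.8% and Srsf7 at 17.1% and 17.8% at 8 h of BMH-21 and CX-5461. Srsf11 lay at 25.0% and 41.0%, and Srsf5 at 41.4% and 34.6%. Clk1 moved from 12.7% at 2 h to 53.3% at 8 h of BMH-21 and from 4.45% to 39.4% in CX-5461.

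**Figure D4:**
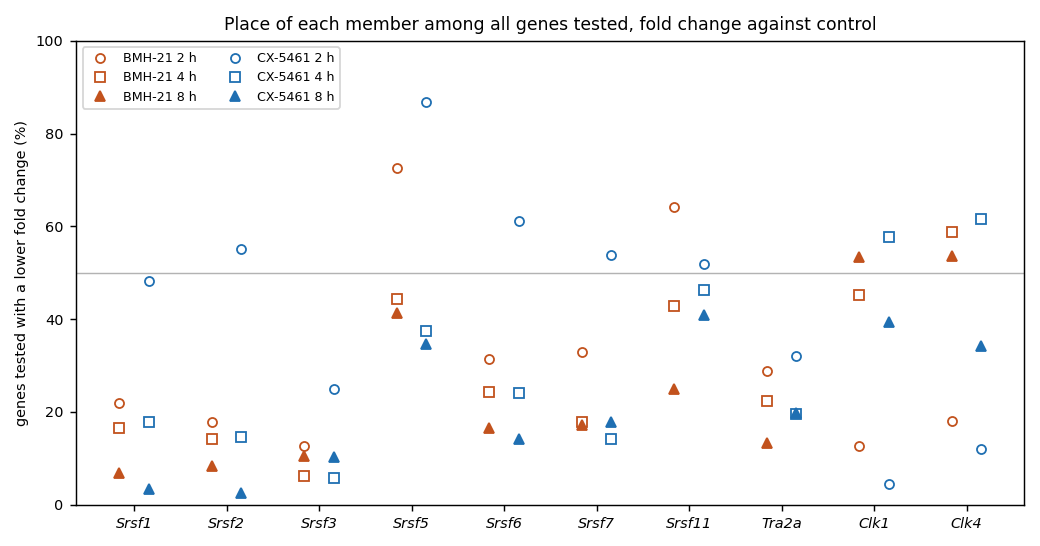
Share of the genes tested with a lower fold change against control than the named member (vertical axis, percent), for the 10 members on the horizontal axis, by inhibitor (colour) and time (symbol). Srsf1 and Srsf2 lie at 3.44% and 2.56% at 8 h of CX-5461, Srsf3 is lowest at 4 h, and Clk1 is lowest at 2 h.

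Among all genes tested, the genes whose centred values over the 21 libraries were most like a member's were often outside the splicing machinery. For Srsf1 the likest gene was Polr3e, a subunit of RNA polymerase III (r = 0.994), and Polr3e was also the likest to Srsf2 (r = 0.990). Close behind for Srsf2 came the members Srsf6 and Srsf1 (r = 0.989 and 0.987), and Srsf1 was the third likest to Srsf6 (r = 0.990). Srsf6 was most like Wdr12, a factor of ribosome assembly (r = 0.992), Srsf3 most like Mfsd5 (r = 0.992), Srsf7 most like Vapa (r = 0.987) and Tra2a most like Fam136a (r = 0.993). Srsf11 was most like Basp1 (r = 0.980) and Srsf5 most like Insig1 (r = 0.954). The kinases had looser likenesses, Clk1 to Zbtb40 (r = 0.819) and Clk4 to Tmem88b (r = 0.813), and each had the other as the third likest gene (r = 0.790). These correlations describe 21 libraries that share the 7 treatments.

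Other genes of splicing control were counted from lists. Of 12 tested among the other SR proteins and SR kinases, 9 were lower and 2 higher at 8 h of BMH-21, where 56.9% of all genes were lower and 24.5% higher. In CX-5461 at 8 h 4 were lower and 2 higher (14.3% and 35.1% of all genes), which became 9 and 2 after centring (44.7% and 29.3%). Srsf12, an SR protein of low level, rose by 2.56 at 8 h of BMH-21 (SE 0.18, adjusted p = 5.4e-27) and by 2.20 at 8 h of CX-5461 (SE 0.18, adjusted p = 1.0e-21). Its log2 value in the control was -0.30 ± 0.37 (SD, n = 3). A gene was tested only with a log2 value above 0 in at least 3 libraries, so Srsf12 entered the test through treated libraries. Its p-values are thus not independent of its rise. Srsf9, which encodes SRp30c, fell by 1.28 at 8 h of BMH-21 (adjusted p = 1.2e-21) and was -0.20 at 8 h of CX-5461 (adjusted p = 0.10). Srsf10, which encodes the splicing repressor SRp38, fell by 1.16 and 0.36 (adjusted p = 5.2e-19 and 0.0026). Clk2, another CLK kinase gene, fell by 0.84 at 2 h of BMH-21 (adjusted p = 4.3e-08) and by 0.72 at 2 h of CX-5461 (adjusted p = 2.7e-06). Over all groups it was lowest at 8 h of BMH-21 (-1.26, adjusted p = 1.4e-16), where Clk1 and Clk4 were lowest at 2 h of CX-5461 as deposited. Within BMH-21 the deposited changes at 2 and 8 h were -0.33 and -0.34 for Clk1 and -0.26 and -0.33 for Clk4. At 8 h of CX-5461 it was -0.28 (adjusted p = 0.062), or -0.49 after centring. The change of Clk3, a further CLK gene, did not pass at 2 h (-0.08 in BMH-21 and -0.25 in CX-5461, adjusted p = 0.69 and 0.069). Clk2, Clk3 and Dyrk1b were singled out after their values had been seen. Dyrk1b, a kinase related to the CLK family, was the other gene of that list that rose at 8 h (0.41 in BMH-21 and 0.58 in CX-5461, adjusted p = 0.0016 and 2.6e-05).

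Most genes of each wider list were lower at 8 h of BMH-21, when 56.9% of all genes were lower and 24.5% higher. Of 27 SR-related proteins 26 were lower and 0 higher, with Scaf11 at -1.38 (adjusted p = 1.1e-23). Of 24 hnRNP and PTB proteins 24 were lower, with Hnrnpab at -1.54 (adjusted p = 3.5e-30). Of 43 core spliceosome genes 40 were lower and 1, Aqr, an intron-binding helicase, was higher by 0.39 (adjusted p = 6.3e-04). Cdc5l, of the Prp19 complex, fell by 1.45 (adjusted p = 7.4e-26). Among 15 nonsense-mediated decay factors 10 were lower and 2 higher, the latter being Upf2 (0.63, adjusted p = 1.1e-07) and Upf3b (0.57, adjusted p = 1.6e-06), while Rbm8a, of the exon junction complex, fell by 1.46 (adjusted p = 1.2e-26). After centring the lower counts at 8 h of BMH-21 were 26 of 27, 21 of 24, 38 of 43 and 10 of 15. The higher counts were 1, 0, 3 and 3, where 51.3% of all genes were lower and 33.3% higher. The decay factors lay nearest to the shares of all genes. In CX-5461 at 8 h the lower counts were 9 of 27, 15 of 24, 19 of 43 and 5 of 15 as deposited, where 14.3% of all genes were lower. After centring they were 23, 21, 40 and 11, where 44.7% of all genes were lower. The lists' medians at 8 h of BMH-21 were -0.75 for the other SR proteins and kinases, -0.89 for SR-related proteins, -0.92 for hnRNP and PTB proteins, -0.80 for the core spliceosome and -0.61 for decay factors, where the members had -1.04 and all genes -0.40.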

How the data were processed

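The deposited table holds log2 values, 1 per gene symbol and library, that the authors deposited as voom-normalized, per the labels of the deposited file. Per the submitters' processing notes the tools were Trim Galore 0.5.0, TopHat2 2.1.1, R 4.0.5 and limma 3.46.0, with mm10. The notes also list a pair of packages for read counts that can compute scaling factors, with no role given. The counting annotation, the use of strand and the origin of the scaling factors are not given in the sources used here. Every value gave back a whole number of reads plus the offset of 0.5, to within 1.8e-08 of a read, and recovered depths are used for description only.

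A linear model was fitted in limma 3.58.1 (R 4.3.3) to the log2 values as deposited, with 1 mean per group over all 21 libraries and empirical Bayes moderation with a mean-variance trend. The 14666 genes with a log2 value above 0 in at least 3 libraries were tested, and all 10 members were among them. Tests were two-sided with Benjamini-Hochberg adjustment over all genes tested in each comparison, and a gene was called where the adjusted p was under 0.05. The variance prior carried 111.5 degrees of freedom as deposited and 8.5 after centring, against 14 from the replicates. The deposited SEs thus rest mostly on spread borrowed from other genes. A library's scaling moves all its genes together, so those degrees of freedom are not independent and deposited p-values can be too small. Fold changes include the offset of 0.5 reads, which understates those of genes with few reads. There were 14 comparisons.

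Alternatives were centring on the library median, median-ratio factors, quantile normalization, an offset of 5 reads, other filters, no trend, voom weights, only the groups compared, a replicate block and leaving out each library in turn. Centring together with leaving out each library at 2 h was added after the data had been seen. The fit was tested on simulated data. The members, the lists and the rule for named genes were chosen with earlier results of these data known. The rule names all members and the 3 genes most like each member in centred values. Of those 3 the first is printed, and a later one where it is itself a member. In each related list the rule also names the largest rise and the largest fall at 8 h of each inhibitor. These were taken among called genes whose groups do not overlap and whose direction is kept after centring. Figures were drawn with matplotlib 3.10.9.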

Additional observations from a re-analysis of the deposited data

Results flagged for a closer look

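For 8 genes the change from 4 to 8 h differed between the inhibitors by the interaction test (BMH-21 minus CX-5461, log2 scale, limma). The values were -0.81 for Srsf1 (adjusted p = 8.9e-07), -0.67 for Srsf2 (adjusted p = 2.9e-05), -0.81 for Srsf3 (adjusted p = 7.8e-07), -0.63 for Srsf5 (adjusted p = 9.4e-05), -0.77 for Srsf6 (adjusted p = 2.5e-06), -0.84 for Srsf7 (adjusted p = 4.2e-07), -0.88 for Srsf11 (adjusted p = 1.6e-07) and -0.98 for Tra2a (adjusted p = 1.5e-08). Centring moved the median of all genes by 0.44 in this comparison. It left -0.37, -0.23, -0.37, -0.19, -0.33, -0.40, -0.45 and -0.54 in the same order. Under quantile normalization Srsf2 and Srsf5 were at -0.05 and -0.02 and did not pass.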

How the results depend on the processing

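The scaling of the libraries was the choice that moved most. Of 140 fold changes of single members (10 in each of 14 comparisons), centring turned 18, median-ratio factors 31 and quantile normalization 34 to the other sign. Other filters, an offset of 5 reads, no trend, voom weights and fits of only the groups compared turned 0. A replicate block ended the call of 1 of the 140 (Srsf2 at 2 h of BMH-21, adjusted p = 0.057). No shared deviation of same-numbered libraries was seen (correlations of -0.25 to 0.09 over 39 pairs, 4 of 21 libraries correlating best with their own number). That cannot show whether the libraries were paired, as the labels do not say what a number stands for. No count of members moved by over 1.5 times under the block (2 at 2 h of BMH-21 and 10 at 8 h, for example).

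Counts of called members moved as follows. At 2 h of BMH-21 the 3 became 6 after centring, with median-ratio factors and after quantile normalization, 1 with no trend, and 0 to 5 leaving out 1 library. At 2 h of CX-5461 leaving out 1 library gave 1 to 5. At 8 h of CX-5461 the 4 became 10 after centring and 9 with median-ratio factors. Between the inhibitors, 0 became 5, 5 and 6 at 2 h, and 1, 4 and 5 at 4 h, after centring, with median-ratio factors and after quantile normalization. All these counts take both directions. After centring, the 6 at 2 h of BMH-21 were 5 lower and 1 higher, and the 5 between the inhibitors at 2 h were 4 lower and 1 higher. Shares of all genes stand above for the deposited and centred counts only, so the other counts describe the processing and not the members.

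The log2 fold changes that turned are given in the order centring, median-ratio factors, quantile normalization, or the last pair where centring kept the sign. In BMH-21 against control, Srsf11 at 2 h became 0.06, 0.07 and 0.05, Clk4 at 4 h 0.05, 0.08 and 0.09, and at 8 h Clk1 became 0.02 and 0.15, Clk4 0.02 and 0.01, and Srsf5 0.15 by quantiles only. At 2 h of CX-5461, Srsf6 became 0.01, 0.05 and 0.05, Srsf1 0.00 and 0.02, Srsf2 0.03 and 0.01, Srsf7 0.02 and 0.03, and Srsf11 0.01 and 0.01. At 4 h of CX-5461, Clk4 became 0.01, 0.10 and 0.11, Clk1 0.05 and 0.13, and Srsf11 0.06 by quantiles only. At 8 h of CX-5461, Srsf11 became -0.20 and -0.10 by centring and median-ratio factors, and Srsf5 and Clk1 became 0.17 and 0.04 by quantiles. Between the inhibitors, Srsf7 at 2 h became -0.07, -0.09 and -0.10, and Tra2a -0.03 and -0.04. At 4 h Srsf7, Srsf11 and Tra2a each became -0.04 and -0.08, and Clk4 -0.02 and -0.01. At 8 h Clk1 became 0.09, 0.14 and 0.12, and Clk4 0.15, 0.19 and 0.17. From 4 to 8 h of BMH-21, Srsf3 became 0.01 and 0.25, Clk1 0.10 and 0.16, and by quantiles only Srsf5 became 0.16 and Srsf7 0.01. From 2 to 4 h of CX-5461 Srsf11 became 0.05 by quantiles only. From 4 to 8 h of CX-5461, Srsf1 became -0.29, -0.28 and -0.07, Srsf2 -0.29, -0.28 and -0.08, Clk1 -0.18, -0.17 and -0.10, and Clk4 -0.28, -0.27 and -0.27. By centring and median-ratio factors alone, Srsf5 became -0.03 and -0.02 in that step, Srsf6 -0.10 and -0.09, and Srsf11 -0.05 and -0.04. In the interaction, Clk1 became 0.16, 0.27 and 0.26, and Clk4 0.11, 0.21 and 0.19. Leaving out 1 library turned only values near 0, which ran from -0.05 to 0.10 for Srsf5 and -0.05 to 0.02 for Srsf11 at 2 h of BMH-21, and at 8 h of CX-5461 from -0.01 to 0.04 for Srsf11, -0.09 to 0.04 for Clk1 and -0.14 to 0.02 for Clk4. Between the inhibitors they ran at 2 h from -0.11 to 0.01 for Srsf1, -0.11 to 0.02 for Srsf3, -0.08 to 0.03 for Srsf6 and -0.07 to 0.08 for Srsf7. At 4 h they ran from -0.15 to 0.02 for Srsf1, -0.13 to 0.02 for Srsf2, -0.09 to 0.09 for Srsf6, -0.06 to 0.10 for Srsf7, -0.04 to 0.11 for Srsf11, -0.06 to 0.13 for Tra2a and Clk4, and -0.18 to 0.02 for Clk1. For Clk1 in BMH-21 they ran from -0.05 to 0.13 between 2 and 4 h and from -0.14 to 0.04 between 4 and 8 h. Centring together with leaving out each library at 2 h was chosen after seeing the data, and in it Srsf2 at 2 h of CX-5461 ran from -0.04 to 0.02. The cause was not tested.

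A member had at least 1647 reads in each library. As a share of the centred SD between libraries, the SD that counting alone gives was 12.3% to 26% for the SR-type genes. It was 49.9% for Clk1 and 44.9% for Clk4. The centred SD itself was 0.042 for Clk1 and 0.069 for Clk4, within the 0.036 to 0.070 of the SR-type genes.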
